A study of Mus musculus with 17 samples.

Results

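Periportal hepatocytes are the liver cells that surround the portal vein, where blood enters the lobule, and 7 genes associated with them were followed here in livers of mice on a high-fat or a control diet. The genes were Hsd17b6, Cyp2f2, Hal, Gls2, Cdh1, Pigr and Sox9, taken by symbol from the RNA table, in which they made up 7 of 12334 genes. All 48 regions of the chromatin table that carry one of these symbols as the gene of the nearest start site were taken as well, of 57499 regions. The mice were C57BL/6, an inbred strain with no engineered allele named in the labels. One set received a high-fat diet (HFD) with 60% of its energy as fat, and the other a control diet (CD) with 18%, each for 10 weeks. Polyadenylated RNA was sequenced in 4 HFD and 4 CD livers, lettered A to D. Acetylation of histone H3 at lysine 9 (H3K9ac), a mark found at active promoters and enhancers, was mapped by chromatin immunoprecipitation in HFD livers A, B and D and in CD livers A, C and D. Sex, age, feeding state and hour of collection are not in the labels, and neither is a statement that a shared letter means a shared animal.

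Blood flows through the liver lobule from the portal vein to the central vein, and oxygen, hormones and nutrients fall along the way. Hepatocytes near the portal vein carry much of the gluconeogenesis, urea synthesis and amino acid breakdown, while those near the central vein, kept in that state by Wnt signalling, make glutamine and many cytochrome P450 enzymes. The 7 genes cover several jobs of the portal side. Hsd17b6 and Cyp2f2 encode enzymes that act on steroids and on foreign compounds. Gls2 and Hal start the breakdown of glutamine and histidine. Cdh1 encodes E-cadherin, the cell adhesion protein, and Pigr the receptor that carries polymeric IgA across epithelial cells towards bile. Sox9 encodes a transcription factor of bile duct cells that is also present in hepatocytes lying next to the ducts.

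Promoter windows from RefSeq (GRCm38.p6, the assembly that mm10 represents) were found for 4 of the 7 genes, namely Hsd17b6, Cyp2f2, Hal and Pigr. Each window runs from 250 bases before the start to 50 after it. Those of Hsd17b6, which was higher in HFD livers, of Cyp2f2, which was lower, and of Pigr, whose start lies inside an acetylated region, are shown 5′ to 3′ on the gene's strand, with the 50 transcribed bases in capitals. They lie at chr10:128007459-128007758 on the minus strand, at chr7:27119705-27120004 on the plus strand and at chr1:130826434-130826733 on the plus strand. Hsd17b6 has another window, for a start further upstream, at chr10:128007562-128007861, which is not printed.
Hsd17b6: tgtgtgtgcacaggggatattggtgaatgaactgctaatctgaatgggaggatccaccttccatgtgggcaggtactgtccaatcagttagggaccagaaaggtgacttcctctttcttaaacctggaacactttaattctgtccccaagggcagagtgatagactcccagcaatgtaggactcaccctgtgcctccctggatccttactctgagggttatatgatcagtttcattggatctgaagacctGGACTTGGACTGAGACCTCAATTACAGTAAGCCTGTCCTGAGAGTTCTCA
Cyp2f2: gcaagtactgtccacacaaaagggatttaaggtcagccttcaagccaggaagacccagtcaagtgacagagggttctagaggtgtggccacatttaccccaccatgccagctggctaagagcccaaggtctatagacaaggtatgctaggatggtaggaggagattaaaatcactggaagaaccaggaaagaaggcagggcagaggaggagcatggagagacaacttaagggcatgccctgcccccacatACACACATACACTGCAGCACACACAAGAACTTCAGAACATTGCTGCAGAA
Pigr: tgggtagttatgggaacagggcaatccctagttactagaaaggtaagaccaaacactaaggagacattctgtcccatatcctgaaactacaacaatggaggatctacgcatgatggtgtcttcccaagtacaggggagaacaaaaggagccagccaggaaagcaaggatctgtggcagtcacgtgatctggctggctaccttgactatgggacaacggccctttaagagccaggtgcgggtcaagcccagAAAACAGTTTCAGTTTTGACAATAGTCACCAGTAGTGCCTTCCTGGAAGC
The windows were searched on both strands for the letters CTTTGA (TCF/LEF factors of Wnt signalling), TGNACTTTG (the hepatocyte factor HNF4A), whose end can overlap the first, and CACGTG (an E-box). Of the 32851 windows of all genes, 16% held CTTTGA, 1.41% held TGNACTTTG and 7.15% held CACGTG. The Pigr window held 1 CACGTG, 71 bases before the start. An E-box in the human PIGR promoter is a known site of USF factors. The Hal window, which is not printed, held 1 CTTTGA at 199 bases before the start. No other match was found in the windows of these 4 genes. The whole Pigr window lay within an H3K9ac region, 87 of the 300 bases of the Hal window did, and no base of the Hsd17b6 or Cyp2f2 window did. Regions lay on both sides of the printed Hsd17b6 window, 161 bases from its upstream end and 199 bases from its downstream end. For the Hsd17b6 window not printed, which also had no base in a region, these gaps were 58 and 302 bases. The nearest region to the Cyp2f2 window lay 465 bases downstream.

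Hepatocyte markers, which check the liver label, were abundant, with a summed level of 131234 to 161089 CPM in HFD livers and 118928 to 136593 CPM in CD livers over 15 genes. RNA libraries held 31802893 to 37596560 counts and H3K9ac libraries 9255635 to 12149497. Values are given as CPM, read counts relative to the library's total after scaling by TMM, the trimmed mean of M-values, and levels of different genes are compared as the authors' FPKM, which corrects for transcript length. A gene or region was called where edgeR's quasi-likelihood test gave a Benjamini-Hochberg adjusted p under 0.05 over the whole table. With 4 livers against 4, the smallest p of the two-sided exact permutation test is 0.0286, and with 3 against 3 it is 0.1. The p-values measure the spread among these libraries.

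In RNA, 4 of the 7 genes changed, and not in one direction. Hsd17b6 rose about as steeply as Sox9 fell, Cyp2f2 and Cdh1 fell less, and Hal, Gls2 and Pigr did not pass the test. That is 1 gene called higher and 3 lower, where 7.27% of all genes were called, 3.63% higher and 3.64% lower in HFD livers. The diets did not overlap in 5 of the 7, and in 14.3% of all genes. The median log2 change of the 7 genes was 0.07, and that of all genes was 0.01. Because whole liver was sequenced, fewer cells of a type and less RNA per cell cannot be told apart in any of these values.

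**Figure D1:**
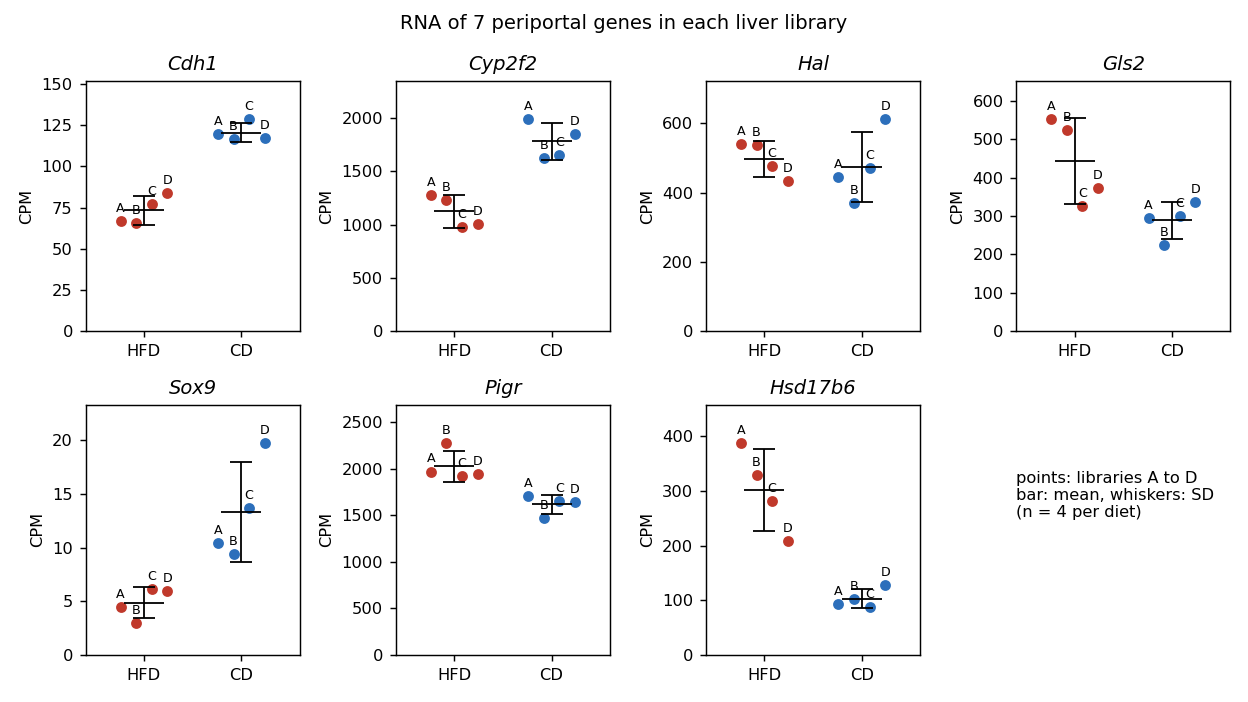
RNA level of the 7 periportal genes in each liver library, in CPM on axes that start at 0, with HFD libraries in red and CD libraries in blue; bars are means and whiskers SD (n = 4 per diet). Hsd17b6 is higher in all HFD livers than in any CD liver, Cyp2f2, Cdh1 and Sox9 are lower in all of them, and Hal overlaps throughout.

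Hsd17b6 encodes a short-chain dehydrogenase that acts on androgens and retinoids, and is located at chr10:127990936-128007508 on the minus strand. Its RNA was 388, 328, 282 and 209 CPM in HFD livers A to D, against 93.9, 102, 87.7 and 127 CPM in CD livers A to D. The lowest HFD liver stood well above the highest CD liver. The mean was 302 ± 75.4 CPM in HFD livers and 103 ± 17.3 CPM in CD livers (SD, n = 4 each). This is a log2 change of 1.55 (SE 0.19), or 2.94-fold, with an adjusted p of 0.000884 in edgeR's quasi-likelihood test, and the exact permutation test gave its smallest value, 0.0286.

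Cyp2f2, at chr7:27119955-27133660, encodes a cytochrome P450 best known for activating naphthalene in lung and for its periportal position in liver. HFD livers A to D had 1278, 1234, 979 and 1004 CPM, and CD livers A to D had 1989, 1626, 1656 and 1852 CPM. All 4 HFD values were below all 4 CD values. Cyp2f2 averaged 1124 ± 154 CPM in HFD livers and 1781 ± 171 CPM in CD livers (SD, n = 4 each), a log2 change of -0.66 (SE 0.13) with an adjusted p of 0.0101 by edgeR. The exact permutation test again gave 0.0286.

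Gls2 and Hal, the pair of amino acid enzymes, did not pass the test. Gls2 encodes the liver glutaminase, which releases ammonia from glutamine for the urea cycle, and lies at chr10:128194635-128210004. Gls2 RNA was 552, 525, 325 and 373 CPM in HFD livers A to D, against 294, 224, 299 and 337 CPM in CD livers A to D. HFD livers A and B stood apart from the rest, and HFD liver C was below CD liver D. The mean was 444 ± 112 CPM in HFD livers and 289 ± 47.3 CPM in CD livers (SD, n = 4 each), a log2 change of 0.62 (SE 0.19). The adjusted p was 0.0767 in edgeR and the exact permutation p was 0.0571. The authors' deposited table gives Gls2 a false discovery rate of 0.0216, and DESeq2 gave an adjusted p of 0.0208. Without HFD library C edgeR gave 0.0322, and without HFD library B 0.232. Without HFD livers C and D, left out after seeing the data, it gave 0.00724, and without A and B 0.333. Because A and B were the higher pair for Gls2 itself, the direction of this split was set by the choice. It cannot decide the diet call.

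Hal encodes histidase, the first enzyme of histidine breakdown, at chr10:93488768-93516743. Hal had 539.5, 538, 477 and 434 CPM in HFD livers A to D and 444, 369.9, 471 and 612 CPM in CD livers A to D. The highest and the lowest of the 8 values were both from CD livers. Its means were 497 ± 51.0 CPM in HFD livers and 474 ± 101 CPM in CD livers (SD, n = 4 each), with a log2 change of 0.07 (SE 0.15), an adjusted p of 0.872 by edgeR and an exact permutation p of 0.629.

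Cdh1, at chr8:106603368-106670246, fell with little spread among the CD livers. E-cadherin joins neighbouring epithelial cells, and in the liver it is found on periportal hepatocytes and bile duct cells. Cdh1 RNA was 66.9, 65.6, 77.0 and 84.1 CPM in HFD livers A to D, against 119.6, 116, 129 and 117 CPM in CD livers A to D. CD livers differed among themselves by a factor of 1.11 from highest to lowest, and every HFD liver was below every CD liver. The mean was 73.4 ± 8.74 CPM in HFD livers and 120.5 ± 5.61 CPM in CD livers (SD, n = 4 each). Cdh1 fell by 0.72 on the log2 scale (SE 0.10), with an adjusted p of 0.00222 by edgeR and an exact permutation p of 0.0286.

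Pigr, at chr1:130826684-130852249, had 1970.4, 2278, 1920.2 and 1939 CPM in HFD livers A to D, and 1704, 1470.0, 1651 and 1642 CPM in CD livers A to D. HFD liver B stood above the other 3 HFD livers, and the diets did not overlap. Pigr averaged 2027 ± 168 CPM in HFD livers and 1617 ± 102 CPM in CD livers (SD, n = 4 each). The log2 change was 0.33 (SE 0.10), and the adjusted calls disagreed between tests. edgeR gave an adjusted p of 0.0955, DESeq2 0.0112, and the authors' deposited table a false discovery rate of 0.0605. Before adjustment the edgeR p was 0.0100. The exact permutation test, which is not adjusted over genes, gave 0.0286, as it does for any gene whose diets do not overlap.

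Sox9, at chr11:112782210-112787757, was the least abundant of the 7 genes. Its RNA was 4.45, 2.98, 6.09 and 5.93 CPM in HFD livers A to D, against 10.5, 9.43, 13.6 and 19.7 CPM in CD livers A to D. In counts these were 99 to 200 reads in HFD libraries and 337 to 651 in CD libraries, so all values rest on many reads. CD liver D was highest and HFD liver B lowest, and the diets did not overlap. Sox9 averaged 4.87 ± 1.46 CPM in HFD livers and 13.3 ± 4.64 CPM in CD livers (SD, n = 4 each). It fell by 1.45 on the log2 scale (SE 0.27), to 0.365 of the CD level, with an adjusted p of 0.00987 by edgeR and an exact permutation p of 0.0286.

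Per transcript length, the 7 genes spanned a wide range of levels. In HFD livers the order was Cyp2f2 (618 ± 84.8 FPKM), Pigr (527 ± 43.8), Hsd17b6 (207 ± 51.7), Hal (180 ± 18.5), Gls2 (178 ± 44.9), Cdh1 (16.6 ± 1.98) and Sox9 (1.19 ± 0.351; SD, n = 4). In CD livers it was Cyp2f2 (978 ± 93.9 FPKM), Pigr (420.1 ± 26.4), Hal (172 ± 36.7), Gls2 (116 ± 19), Hsd17b6 (70.5 ± 11.9), Cdh1 (27.3 ± 1.27) and Sox9 (3.23 ± 1.12; SD, n = 4). Neighbours whose FPKM ranges overlapped were Cyp2f2 with Pigr, Hsd17b6 with Hal and Hal with Gls2 in HFD livers, and Hal with Gls2 in CD livers. Cyp2f2 and Pigr thus came nearer to each other in HFD livers. By its mean, Hsd17b6 stood above Hal and Gls2 there but below both in CD livers. The HFD range of Hsd17b6 overlapped those of Hal and Gls2. In HFD liver D Hsd17b6 was below both, at 143 FPKM against 157 for Hal and 150 for Gls2. By mean FPKM over all 8 libraries, Cyp2f2 ranked 77 of 12334 genes and Sox9 8556.

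The H3K9ac regions of these genes that were called were all lower in HFD livers. They were 4 of the 48, at Sox9, Cdh1 (2 regions) and Cyp2f2, which are the 3 genes whose RNA fell. Of all regions, 2.39% were called, 0.835% higher and 1.55% lower. The diets did not overlap in 7 of the 48 regions, 2 higher and 5 lower in HFD livers, and in 15.4% of all regions. In 9 regions the middle was within 1000 bases of the start site, and 2 of these 9 were called. The authors' distances run from the middle of a region to the start, positive inside the gene.

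**Figure D2:**
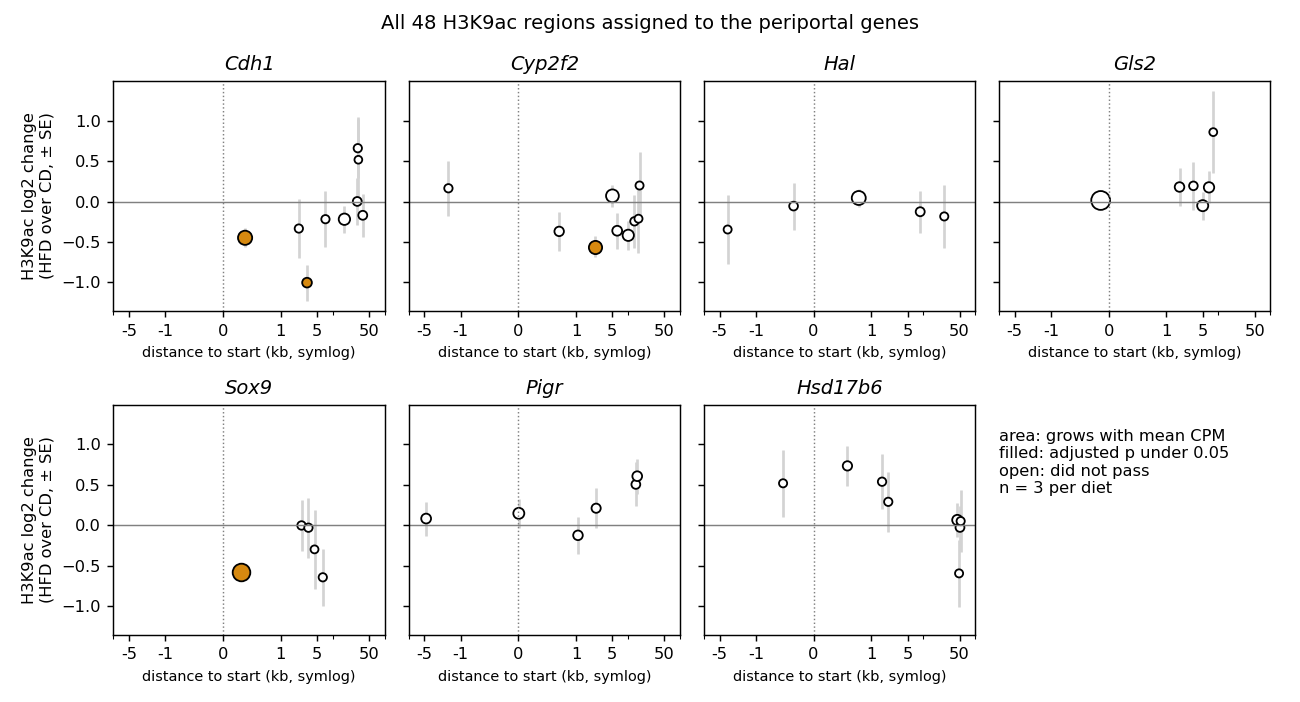
log2 change of H3K9ac, HFD over CD (± SE), in each of the 48 regions assigned to the 7 genes, against the distance of the region's middle from the start site on a symmetric log axis; filled points passed an adjusted p of 0.05 and point area grows with the mean level (n = 3 per diet). The 4 filled points all lie below 0, at Cdh1 (2), Cyp2f2 and Sox9.

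The Sox9 start region had the lowest adjusted p of the 48 regions. This region, chr11:112780865-112784170, spans 3306 bases around the start and overlaps the 5′ untranslated part of the gene. H3K9ac there was 72.6, 69.5 and 74.9 CPM in HFD livers A, B and D, against 107, 97.8 and 119 CPM in CD livers A, C and D. The HFD values lay close together and all below the CD values. The mean was 72.3 ± 2.71 CPM in HFD livers and 108 ± 10.8 CPM in CD livers (SD, n = 3 each), a log2 change of -0.58 (SE 0.08) with an adjusted p of 1.42e-06 by edgeR. The exact permutation p was 0.1, the smallest for 3 against 3. The other 4 Sox9 regions, all downstream of the start, were under 2 CPM on average in both diets and did not pass, with adjusted p of 0.53 or more by edgeR.

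At Cdh1 both called regions lie at the beginning of the gene. The one over the start, chr8:106602923-106604571, had 26, 22 and 35.8 CPM in HFD livers A, B and D, and 38.9, 35.2 and 39.3 CPM in CD livers A, C and D. HFD liver D was just above CD liver C, so the diets overlapped. The log2 change was -0.45 (SE 0.12), with an adjusted p of 0.0216 by edgeR and an exact permutation p of 0.2. DESeq2 gave 0.112, edgeR on regions at or above the median level gave 0.0950, and the call was lost when HFD library A (0.139), HFD library B (0.493), CD library A (0.0864), CD library C (0.0555) or CD library D (0.0900) was left out. Without HFD library D it was kept, at 2.43e-05.

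The second Cdh1 region, chr8:106606127-106606980, lies in an intron with its middle 3186 bases inside the gene. It had 2.73, 2.78 and 3.19 CPM in HFD livers A, B and D, against 5.63, 5.25 and 6.53 CPM in CD livers A, C and D. All HFD values were below all CD values. The mean was 2.90 ± 0.251 CPM in HFD livers and 5.80 ± 0.661 CPM in CD livers (SD, n = 3 each), a log2 change of -1.0 (SE 0.22) with an adjusted p of 0.00301 by edgeR. Without HFD library B the adjusted p was 0.0571. The other 7 Cdh1 regions did not pass, and their log2 changes ran from -0.33 to 0.66.

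Cyp2f2 had its called region inside the gene rather than at the start. The region chr7:27121346-27123219, in an intron 2328 bases from the start, had 21.9, 19.7 and 15.4 CPM in HFD livers A, B and D, and 33.9, 27.2 and 23.3 CPM in CD livers A, C and D. The diets did not overlap, by a margin smaller than the spread within either diet. Its mean was 19 ± 3.32 CPM in HFD livers and 28.1 ± 5.35 CPM in CD livers (SD, n = 3 each), and the log2 change -0.56 (SE 0.13) had an adjusted p of 0.00604 by edgeR. Without HFD library B that p was 0.0725, without CD library A 0.192, and on regions at or above the median level 0.0585. The region nearest the start, 707 bases inside the gene, had 4.43, 3.30 and 2.09 CPM in HFD livers A, B and D, and 5.18, 3.33 and 4.46 CPM in CD livers A, C and D, with an adjusted p of 0.637 by edgeR. A region of similar strength 5009 bases inside the gene had a log2 change of 0.07 (SE 0.13).

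Hsd17b6, whose RNA rose, had no called region. Its strongest region near the start, chr10:128006582-128007259 in an intron, had 4.68, 4.17 and 4.06 CPM in HFD livers A, B and D, against 3.48, 1.75 and 2.57 CPM in CD livers A, C and D. All HFD values were above all CD values, and CD liver A was nearest to them. The means were 4.31 ± 0.332 CPM in HFD livers and 2.6 ± 0.867 CPM in CD livers (SD, n = 3 each), and the log2 change of 0.73 (SE 0.24) had an adjusted p of 0.110 by edgeR. Without CD library A the change was 1.01 and the adjusted p 0.0389 by edgeR, the only 1 of 11 alternatives in which this region passed. Without CD library C the change was 0.50 (adjusted p = 0.555 by edgeR). With the letter as a block, which takes the diet change from livers A and D alone, it was 0.53 (adjusted p = 0.532 by edgeR). The regions at -528, 1612 and 2122 bases had log2 changes of 0.52, 0.54 and 0.29 and did not pass. A further 4 regions lie 45380 to 52525 bases downstream of the start, beyond the end of the gene, and had log2 changes of -0.59 to 0.07.

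The 3 genes that did not pass in RNA had no called region either. The Gls2 start region was the strongest of the 48, with 134, 120.4 and 110.2 CPM in HFD livers A, B and D, and 112, 120.5 and 129 CPM in CD livers A, C and D, and its log2 change was 0.01 (SE 0.08). The Hal region 783 bases inside the gene had 31.7, 34.1 and 27.8 CPM in HFD livers A, B and D, and 31.8, 28.1 and 31.2 CPM in CD livers A, C and D, with a log2 change of 0.04 (SE 0.11). Pigr had 10.8, 9.90 and 7.58 CPM over its start in HFD livers A, B and D, and 9.56, 6.75 and 9.50 CPM in CD livers A, C and D, with a log2 change of 0.15 (SE 0.18). In all of these regions the diets overlapped, and the adjusted p by edgeR was 0.849 or more. A Pigr region 15032 bases inside the gene, chr1:130841488-130841943, had 5.54, 5.56 and 5.05 CPM in HFD livers A, B and D, against 2.86, 4.17 and 3.56 CPM in CD livers A, C and D. There the diets did not overlap, but the log2 change of 0.61 (SE 0.22) had an adjusted p of 0.161 by edgeR.

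Set side by side, RNA and the strongest region within 1000 bases of the start gave log2 changes of -1.45 and -0.58 for Sox9, -0.72 and -0.45 for Cdh1, -0.66 and -0.37 for Cyp2f2, and 1.55 and 0.73 for Hsd17b6. For Gls2 they were 0.62 and 0.01, for Pigr 0.33 and 0.15, and for Hal 0.07 and 0.04. Sox9 and Cdh1 were called in both assays. Summed over all regions assigned to a gene, H3K9ac was 77.9 ± 2.87 CPM in HFD livers and 115 ± 12.4 CPM in CD livers at Sox9 (4774 bases covered; SD, n = 3 each). At Cdh1 the sums were 51.6 ± 9.29 CPM in HFD livers and 65.9 ± 6.09 CPM in CD livers (5913 bases; SD, n = 3 each). At Gls2 they were 145 ± 16.3 CPM in HFD livers and 143 ± 10.6 CPM in CD livers (6658 bases; SD, n = 3 each).

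**Figure D3:**
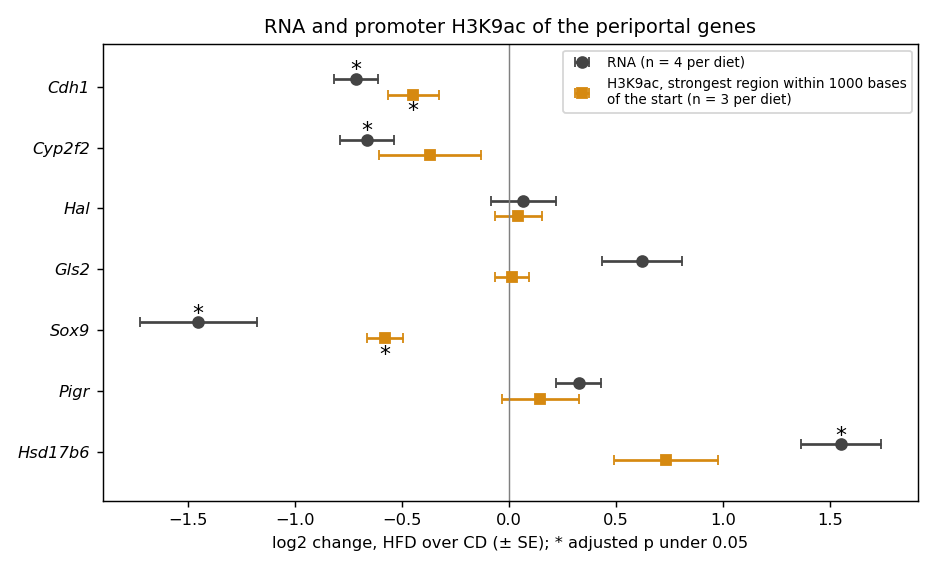
log2 change, HFD over CD (± SE), of RNA (n = 4 per diet) and of the strongest H3K9ac region within 1000 bases of the start (n = 3 per diet) for each of the 7 genes; a star marks an adjusted p under 0.05. Sox9 and Cdh1 are starred in both assays, Cyp2f2 and Hsd17b6 in RNA alone, and the Gls2 points lie at 0.62 and 0.01.

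Hsd17b6 lies in a cluster of short-chain dehydrogenase genes on chromosome 10, and 2 neighbours rose with it. Rdh9, a retinol dehydrogenase, had 103, 134, 142 and 128 CPM in HFD livers A to D, against 25.5, 31.9, 29.2 and 30.9 CPM in CD livers A to D. Every HFD liver exceeded every CD liver several times over, and the log2 change of 2.11 (SE 0.12) had an adjusted p of 1.71e-05 by edgeR. Rdh16, another retinol dehydrogenase, rose by 0.84 (SE 0.18; adjusted p = 0.0188 by edgeR), at 113 ± 31.9 CPM in HFD livers and 63.2 ± 4.82 CPM in CD livers (SD, n = 4 each). Rdh7 and Sdr9c7, which lie between Rdh16 and Hsd17b6, had log2 changes of 0.18 and -0.02, and Prim1, on the other side of Hsd17b6, -0.33, none of which passed. Rdh9, Rdh16, Rdh7 and Hsd17b6 are related in sequence, so that reads could have been split between them. In H3K9ac, the Rdh16 region 348 bases from its start was called, at 25.4 CPM in HFD livers and 18.4 CPM in CD livers (log2 change 0.47, adjusted p = 0.0296 by edgeR), while the Rdh9 region at 251 bases was not (0.42, adjusted p = 0.368).

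Of 21 measured retinol and steroid enzymes other than Hsd17b6, 2 rose, 3 fell and 16 did not pass, with a median log2 change of 0.18. Most are short-chain dehydrogenases, but Srd5a1, Srd5a2 and Akr1c6, none of which passed, belong to other families. Over all genes, 3.63% were called higher and 3.64% lower, a share to set beside the lists that follow as well. Rdh9 and Rdh16 were the 2 that rose. Rdh11, which reduces retinal, fell by 1.12 (adjusted p = 0.0121), and Hsd17b7, an enzyme of cholesterol synthesis, fell by 0.50 (adjusted p = 0.0273, both by edgeR).

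The histidine and glutamine list put Gls2 and Hal beside 13 other measured genes, of which 4 rose, 1 fell and 8 did not pass (median 0.42). Slc38a4, an amino acid transporter, averaged 1725 ± 196 CPM in HFD livers and 1044 ± 89.6 CPM in CD livers (SD, n = 4 each), with a log2 change of 0.72 and an adjusted p of 0.00402 by edgeR. By the same edgeR test Slc38a3, a glutamine and histidine transporter, rose by 0.85 (adjusted p = 0.0150), and Glul, the pericentral glutamine synthetase, by 0.48 (adjusted p = 0.0153). Slc1a5, a glutamine transporter with little RNA in liver, fell by 1.33 (adjusted p = 0.0104 by edgeR), at 1.29 CPM in HFD livers and 3.24 CPM in CD livers. The remaining called gene was Uroc1, the urocanase that acts after histidase, which rose by 0.60 (adjusted p = 0.0280 by edgeR) and is named outside the rule to complete the count. The lists overlap, and Uroc1 is counted again among the periportal genes below and Glul among the pericentral ones.

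Around Cdh1, the adherens junction list had 9 measured genes, of which none rose, 1 fell and 8 did not pass (median -0.05). The gene that fell was Pvrl2, a nectin, at 42.1 ± 4.89 CPM in HFD livers and 59.3 ± 8.64 CPM in CD livers (SD, n = 4 each), with a log2 change of -0.50 and an adjusted p of 0.0422 by edgeR. The catenins that bind the E-cadherin tail are named here for that role, with their values known. Ctnnb1 had a log2 change of 0.03 (SE 0.10), Ctnna1 of -0.04 (SE 0.08) and Ctnnd1 of -0.06 (SE 0.10). Cdh2, the N-cadherin of hepatocytes, had 132 ± 18.3 CPM in HFD livers and 125 ± 14.7 CPM in CD livers (SD, n = 4 each).

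Pigr was set beside 11 measured genes of IgA transport and of the cytokine signalling that induces Pigr. Among them 1 rose, none fell and 10 did not pass (median 0.21). Il1rn, the interleukin 1 receptor antagonist, rose by 1.44 (adjusted p = 0.0142 by edgeR), at 2.69 ± 0.953 CPM in HFD livers and 0.984 ± 0.266 CPM in CD livers (SD, n = 4 each). It is not itself a transport gene.

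For Sox9, 17 measured genes of the Notch and Hippo pathways, both known to act on Sox9 in liver cells, gave none that rose, 1 that fell and 16 that did not pass (median -0.05). Ankrd1, a Hippo pathway target, fell by 1.69 (adjusted p = 0.00308 by edgeR), at 0.239 ± 0.0255 CPM in HFD livers and 0.782 ± 0.108 CPM in CD livers (SD, n = 4 each), which is low in both diets. Bile duct cells also express Sox9 and Cdh1. None of 17 measured cholangiocyte markers passed, and their median log2 change was -0.35. The diets did not overlap in 4 of the 17, and in 14.3% of all genes. Their summed level was 657 to 742 CPM in HFD livers and 725 to 825 CPM in CD livers. Most of that sum came from Krt8, Krt18, Onecut2 and Cldn3, which averaged 152, 148, 153 and 68.5 CPM in HFD livers. It therefore says little about the rarer markers. Of the defining markers, Krt19 was at 1.04 ± 0.593 CPM in HFD livers and 2.11 ± 1.28 CPM in CD livers, and Krt7 at 0.567 ± 0.222 CPM in HFD livers and 0.975 ± 0.244 CPM in CD livers (SD, n = 4 each). Epcam was at 1.37 ± 0.520 CPM in HFD livers and 2.2 ± 0.694 CPM in CD livers (SD, n = 4 each). None of these 3 was at 0 in any library, their log2 changes were -1.03, -0.77 and -0.69, and their adjusted p by edgeR was 0.222 or more. The part of bile duct cells in the Sox9 and Cdh1 values was not tested.

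Other genes listed here as periportal were more often higher than lower in HFD livers. Of 25 measured genes on this list, outside the 7, 8 rose, 2 fell and 15 did not pass, with a median log2 change of 0.42. Over all genes, 3.63% were called higher and 3.64% lower. The list was drawn up by symbol, and the position of its genes in the lobule was not measured in these livers. Mfsd2a, a lysophospholipid transporter, had 208, 214, 57.5 and 77.1 CPM in HFD livers A to D, against 4.94, 6.79, 6.70 and 8.43 CPM in CD livers A to D. All HFD livers were far above the CD livers, with A and B highest, and the log2 change was 4.37 (SE 0.44; adjusted p = 0.000355 by edgeR). Slc7a2, a transporter of arginine and lysine, rose by 1.51 (adjusted p = 0.00148 by edgeR). The 2 that fell were Cyp8b1 and Ephx1, and their place on the portal side is less certain. Cyp8b1, the sterol hydroxylase that sets the share of cholic acid in bile, fell by 1.5 (adjusted p = 0.000753 by edgeR). Ephx1, an epoxide hydrolase, fell by 1.24 (adjusted p = 0.00208 by edgeR).

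Pericentral genes were also more often higher than lower in HFD livers. Of 30 measured, 10 rose, 4 fell and 16 did not pass, with a median log2 change of 0.24, where 3.63% of all genes were called higher and 3.64% lower. Oat, the ornithine aminotransferase next to the central vein, averaged 1013 ± 70.9 CPM in HFD livers and 434.8 ± 96.5 CPM in CD livers (SD, n = 4 each), a log2 change of 1.22 (adjusted p = 0.000916 by edgeR). Lect2, a secreted hepatokine, rose by 1.21 (adjusted p = 0.000944 by edgeR). Cyp2c29, a cytochrome P450, fell by 1.30 (adjusted p = 0.000224), and Gstm3, a glutathione transferase, fell by 1.76 (adjusted p = 0.000916, all by edgeR). Reads of Cyp2c29 and Gstm3 could be shared with near-identical family members.

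**Figure D4:**
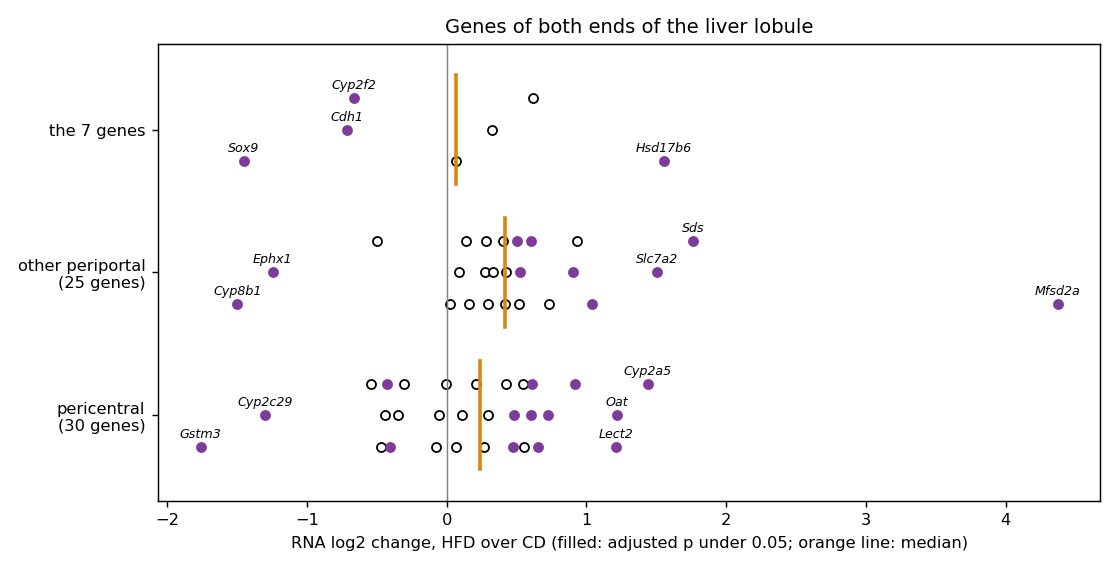
RNA log2 change, HFD over CD, of each of the 7 genes, of 25 other genes listed as periportal and of 30 listed as pericentral; filled points passed an adjusted p of 0.05 and the orange lines are the medians, 0.07, 0.42 and 0.24. Points spread to both sides of 0 in every row, with Mfsd2a farthest at 4.37.

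Among all genes at or above the median level, those whose log2 levels followed a member most closely over the 8 libraries were read off by Pearson's r, as a description in which the diet difference and the scaling are shared. Cdh1 was followed by Nedd4l (r = 0.993) and Kifc3 (0.989), Cyp2f2 by Cyp27a1 (0.988) and Ces2a (0.980), and Sox9 by Pim1 (0.983) and Chka (0.982). Hsd17b6 was followed by Ypel5 (0.989) and Slc20a1 (0.987). The 3 genes that did not pass had Carhsp1 (0.993) and Gjb2 (0.987) for Gls2, Recql5 (0.959) and Acad9 (0.943) for Hal, and Ctdsp1 (0.978) and Trpc4ap (0.977) for Pigr.

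The 4 HFD livers were not alike. Relative to the CD mean, Gls2 was at 0.95, 0.88, 0.19 and 0.38 on the log2 scale in HFD livers A to D, Hsd17b6 at 1.93, 1.69, 1.47 and 1.04, and Sox9 at -1.51, -2.08, -1.06 and -1.10. Livers A and B were thus above C and D for Gls2 and Hsd17b6, as also for Hal and Cyp2f2, and below them for Cdh1 and Sox9. Pigr was also higher in A and B, at 0.29, 0.50, 0.25 and 0.26 in HFD livers A to D, though A was close to C and D. Endothelial and stellate cell markers were also apart between these livers, lower in A and B than in C and D. The mean of 16 sinusoidal endothelial markers was at -0.52, -0.24, 0.57 and 0.54 in HFD livers A to D, and that of 14 stellate cell markers at -0.65, -0.55, 0.08 and 0.27. The mean of 14 Kupffer cell and macrophage markers was likewise lower in A and B, at -0.70, -0.05, 0.18 and 0.77. That of 15 hepatocyte markers ran the other way, higher in A and B, at 0.46, 0.27, 0.06 and 0.06. The mean of 6 lymphocyte markers, at -0.13, 0.16, -0.12 and 0.41, did not split the livers in this way. Nor did that of 17 cholangiocyte markers, at -0.67, -0.25, -0.51 and -0.19.

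In summed level, the endothelial markers spanned 209 to 437.2 CPM in HFD livers and 259 to 355 CPM in CD livers. The Kupffer cell markers spanned 179 to 476 CPM in HFD livers and 232 to 339 CPM in CD livers, and the stellate cell markers 335 to 580.1 CPM in HFD livers and 432 to 507 CPM in CD livers. None of the 15 hepatocyte, 16 endothelial, 14 Kupffer cell, 14 stellate cell or 6 lymphocyte markers passed the diet test in edgeR, and their medians were 0.19, 0.18, 0.11, -0.21 and 0.09. The part of these cells in the members' values was not tested. The diet calls of Cdh1, Cyp2f2, Hsd17b6 and Sox9 stood with either pair of HFD livers left out, an alternative chosen after seeing the data. Without HFD livers A and B the log2 changes were -0.60 for Cdh1, -0.86 for Cyp2f2, 1.24 for Hsd17b6 and -1.16 for Sox9, and without C and D they were -0.86, -0.50, 1.80 and -1.84, with adjusted p of at most 0.0455 by edgeR.

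**Figure D5:**
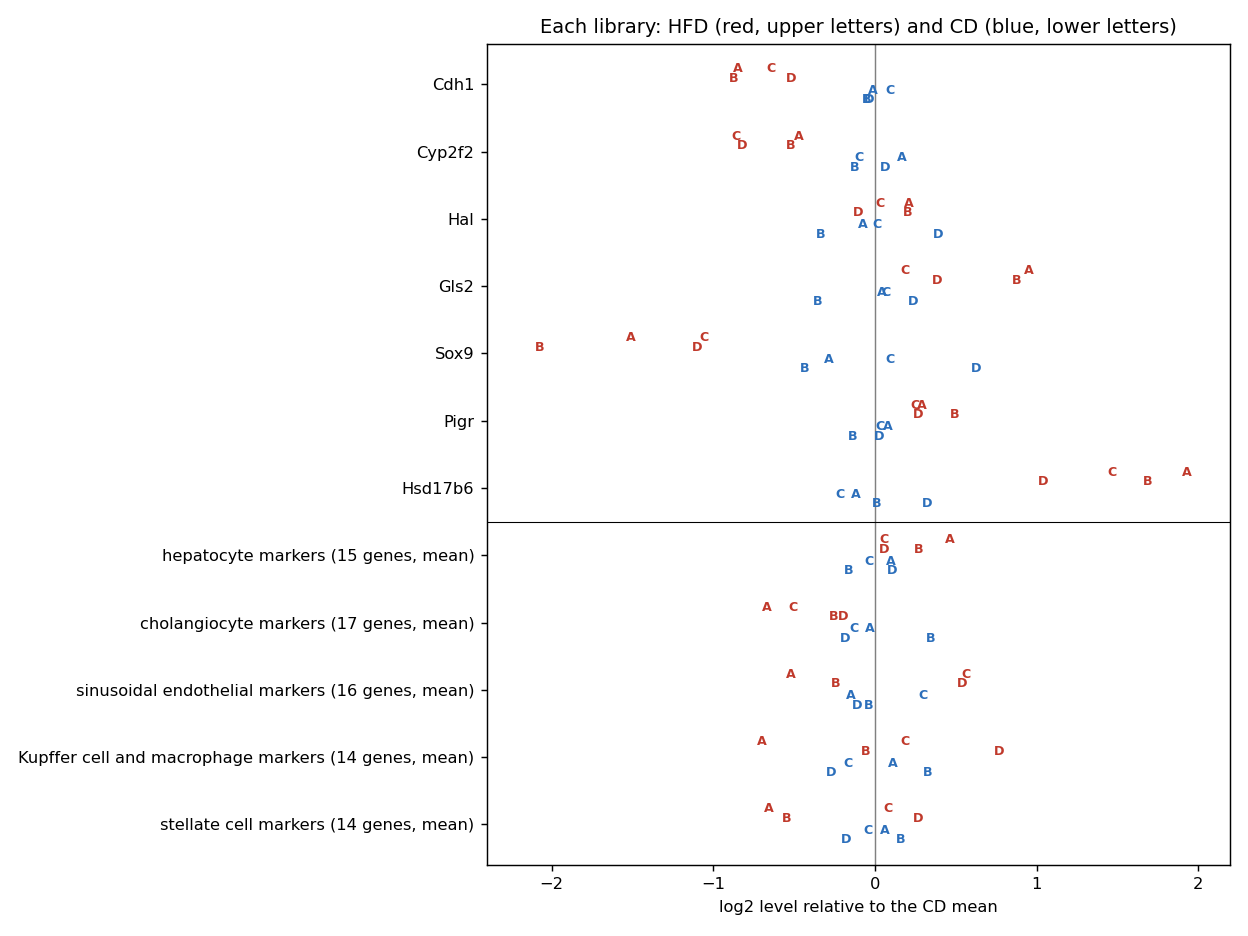
log2 level of each library relative to the CD mean, for the 7 genes (top) and for the mean of 5 cell marker lists (bottom), with HFD libraries as red letters above and CD libraries as blue letters below. Red A and B lie apart from red C and D in Gls2, in the endothelial markers and in the stellate cell markers.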

How the data were processed

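The members and gene lists were chosen with earlier results of these data known. Each assay had 1 deposited table. Per the file headers it holds raw read counts for every gene or region, log2 FPKM (RNA) or log2 CPM (H3K9ac), and the authors' comparison of the diets as a log2 ratio with its p-value and FDR. The submitters' processing notes name mm10 as the build. Aligner, counter, strand setting and peak caller: not given in the sources used here. The RNA table had 17333 lines, of which 4999 were blank and left out. Its lowest mean count was 13.9, so rarer genes could not be tested. H3K9ac lines repeating a region were counted once (57571 lines, 57499 regions), and none of the members' regions repeated. A control-diet input library and 2 ATAC libraries, 3 of the 17 labelled samples, were not analysed here.

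Diets were compared over the whole tables with edgeR 4.0.16 in R 4.3.3 (TMM scaling, quasi-likelihood test, two-sided, no block, Benjamini-Hochberg threshold 0.05). The filter on low counts removed no gene or region. The fit was tested on simulated data. Alternatives were DESeq2 1.42.0, library totals, DESeq2 size factors, features at or above the median level, the letter as a block, and each library left out. Dropping HFD livers in pairs was added after seeing the data. Single values were tested by exact permutation. Levels relative to the CD mean used a prior count of 2. FPKM are the authors' log2 values taken back to the linear scale. No 2 libraries agreed within sampling noise. Named genes were all 7 members, up to 4 called genes with the smallest p in each list, and the 2 best-correlated genes per member; others named for their role are marked as such. Counting error weighs most on regions of few reads.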

Additional observations from a re-analysis of the deposited data

Results flagged for a closer look

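Pigr RNA in HFD liver B, at 2278 CPM, stood far from the other 3 HFD livers, which had 1970.4, 1920.2 and 1939 CPM, when its distance from them was set against the range of the 4 livers. Of 14 sets of 4 livers examined in this way (7 genes in both diets), this was the 1 found, and chance gives about 1 in 20. Without HFD library B the log2 change of Pigr was 0.26, with an adjusted p of 0.309 by edgeR.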

How the results depend on the processing

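The RNA calls of Cdh1, Cyp2f2 and Hsd17b6 held in all 15 alternatives and that of Sox9 in all 14 that tested it, as did the H3K9ac call at the Sox9 start in all 11. Over the whole RNA table the count of called genes was 897, against 1405 by DESeq2, 543 at or above the median level and 478 to 1107 with 1 library left out. Over all H3K9ac regions 1372 were called, against 798 by DESeq2, 886 at or above the median level and 563 to 1862 with 1 library left out. Called member regions numbered 4, against 2 at or above the median level and 1 to 4 with 1 library left out. Those within 1000 bases of a start numbered 2, against 1 by DESeq2, at or above the median level and with the replicate block, and 1 to 2 with 1 library left out. With the replicate block 826 genes and 1277 regions were called, the Cdh1 start region lost its call (-0.36, adjusted p = 0.0824 by edgeR), and the Hal and Pigr start regions turned to -0.082 and -0.052. In H3K9ac only the letters A and D occur in both diets, so the block takes the diet change from livers A and D alone. Deviations from the diet mean were correlated between HFD and CD libraries. In RNA, same-letter correlations ran from -0.22 to 0.29 and other-letter ones from -0.41 to 0.37. In H3K9ac, same-letter correlations were 0.090 for A and 0.081 for D, and other-letter ones ran from -0.12 to 0.046. So few correlations cannot decide whether letters pair the libraries. Small changes turned in sign with 1 library left out: Hal RNA -0.034 to 0.21, Hal H3K9ac -0.020 to 0.13, Gls2 H3K9ac -0.063 to 0.088 and Pigr H3K9ac -0.0057 to 0.28. Hal RNA was at -0.072 without HFD livers A and B. Regions of few reads could show only large changes.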

Other observations

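Ass1, which encodes the urea cycle enzyme argininosuccinate synthase, was listed at only 2.69 ± 1.07 CPM in HFD livers and 1.41 ± 0.256 CPM in CD livers (SD, n = 4 each), while Asl, which encodes the next enzyme of the cycle, was at 445 ± 133 CPM in HFD livers and 336 ± 35.2 CPM in CD livers. Arg1 was at 1421 ± 258 CPM in HFD livers and 994 ± 137 CPM in CD livers, and Cps1 at 5456 ± 1056 CPM in HFD livers and 4084 ± 455 CPM in CD livers. None of these 4 genes passed in edgeR (adjusted p = 0.0754 for Ass1, 0.265 for Asl, 0.0685 for Arg1 and 0.166 for Cps1), and the Ass1 level should be checked against the reads before it is used.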
